A study of Mus musculus with 6 samples.

Results

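The 8 genes described here encode enzymes of haem synthesis: the 5-aminolevulinate synthase (ALAS) isoenzymes Alas1 and Alas2, and 6 later enzymes, Alad, Uros, Urod, Cpox, Ppox and Fech. They were chosen by name from a table of raw counts of 55487 genes, with their counts and log2 fold changes between the same groups already known. Their differences between the groups are therefore given as a description and without a test. All 8 passed the filter on low counts that left 36508 genes for testing. The cells were megakaryocyte-erythroid progenitors (MEP), the bone marrow stage from which red cell and platelet precursors arise, sorted from 8-week-old C57BL/6 wild-type animals. There were 3 libraries of control mice and 3 of mice fasted for 6 h, and the study asked how a short fast affects erythropoiesis. The labels do not say whether a library is 1 mouse or a pool, so p-values measure only the spread between these libraries. The extraction text is written for ground tissue, whereas the design text names sorted cells.

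Haem is made partly in mitochondria and partly in the cytosol, from glycine and succinyl-CoA, and ends with the insertion of iron into protoporphyrin IX. ALAS catalyses the first and usually rate-limiting step. Most tissues use ALAS1, which haem itself represses, while maturing erythroid cells switch to ALAS2, which is under the control of GATA1 and of iron.

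Library totals ran from 22445970 to 30246110 counts in control and from 12797144 to 18225191 in fasted, so the fasted libraries were the shallower. Counts on the 1740 odorant and vomeronasal receptor genes, which MEP are not known to express, were used as a background per kilobase of exon. That background was equivalent to 3.93 to 8.68% of all counts in control and to 11.6 to 14.8% in fasted, with no overlap. It touches every value below that rests on few counts, and its part in the differences was not tested. Genes that averaged at least 5 times this background, 10561 of those tested, are called well-measured below. All 8 enzymes were among them, with Alas2 the closest to the background at 3.80 to 7.84 times. The labelled cell type was checked against 12 MEP markers, of which all were found and 11 were well measured. Summed, they reached 7647, 7051 and 4141 CPM in control 1, 2 and 3 and 5580, 6489 and 8214 CPM in fasted 1, 2 and 3. CPM are counts scaled to a common library size, here by library totals alone. Granulocyte-monocyte genes were also present in every library, and summed to 3538, 11169 and 16847 CPM in control 1, 2 and 3 and to 4195, 2724 and 1671 CPM in fasted 1, 2 and 3. In control 2 and control 3 this sum was above that of the MEP markers, and in control 1 and every fasted library below it.

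Alas1 was the enzyme with the widest gap between the groups, lower in each fasted library than in every control library. Alas1 (ENSMUSG00000032786.16, GRCm38 chromosome 9, 106233455 to 106248654, minus strand) encodes the housekeeping ALAS isoenzyme. It had 3690, 4685 and 5027 counts in control 1, 2 and 3 and 631, 625 and 630 counts in fasted 1, 2 and 3. After scaling by the trimmed mean of M-values (TMM), these were 161.9, 209.2 and 239.7 CPM against 40.6, 32.7 and 33.0 CPM. The groups were far apart, and the fasted libraries lay closer to each other than the control libraries did. The group means were 203.6 ± 39.2 CPM (SD, n = 3) in control and 35.4 ± 4.47 CPM (SD, n = 3) in fasted, a log2 fold change of -2.52 with a standard error (SE) of 0.24, or 5.75-fold lower in fasted. Scaled by library totals alone, the values were 122, 178 and 224 CPM in control and 49.3, 34.3 and 42.3 CPM in fasted, which is 4.15-fold lower. In the fasted libraries Alas1 still stood at 6.27 to 7.10 times the background, compared with 54.9 to 66.0 times in control. Less Alas1 RNA per cell and fewer cells rich in Alas1 cannot be told apart in bulk samples.

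Alas2, which encodes the erythroid isoenzyme, showed no such gap. Alas2 (ENSMUSG00000025270.13, chromosome X, 150547375 to 150570638, plus strand) had 157, 249 and 274 counts in control 1, 2 and 3 and 147, 304 and 137 counts in fasted 1, 2 and 3. As TMM-scaled CPM these were 6.9, 11.1 and 13.1 in control and 9.5, 15.9 and 7.2 in fasted. The groups overlapped throughout, with the highest value in fasted 2 and the lowest in control 1. The log2 fold change was 0.07 (SE 0.32) with TMM scaling and 0.48 (SE 0.35) on library totals. Its spread within the fasted group was the widest of the 8 enzymes there, and it was also the gene with the fewest counts.

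The ratio of both isoenzymes within a library does not depend on how libraries are scaled to each other. Per kilobase of exon, Alas1 exceeded Alas2 9.12-, 7.31- and 7.13-fold in control 1, 2 and 3. In fasted 1, 2 and 3 the same ratio was 1.67, 0.80 and 1.78. Control libraries thus carried several times more Alas1 than Alas2 RNA, and fasted libraries similar amounts of each, with Alas2 the more abundant in fasted 2. The log2 ratio was 2.96 ± 0.20 (SD, n = 3) in control and 0.42 ± 0.64 (SD, n = 3) in fasted, a difference of -2.55, or 5.85-fold. Both ALAS genes summed, relative to the 6 later enzymes, were 3.17-fold lower in fasted, again without overlap, so the level of Alas2 did not make up the difference.

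**Figure D1:**
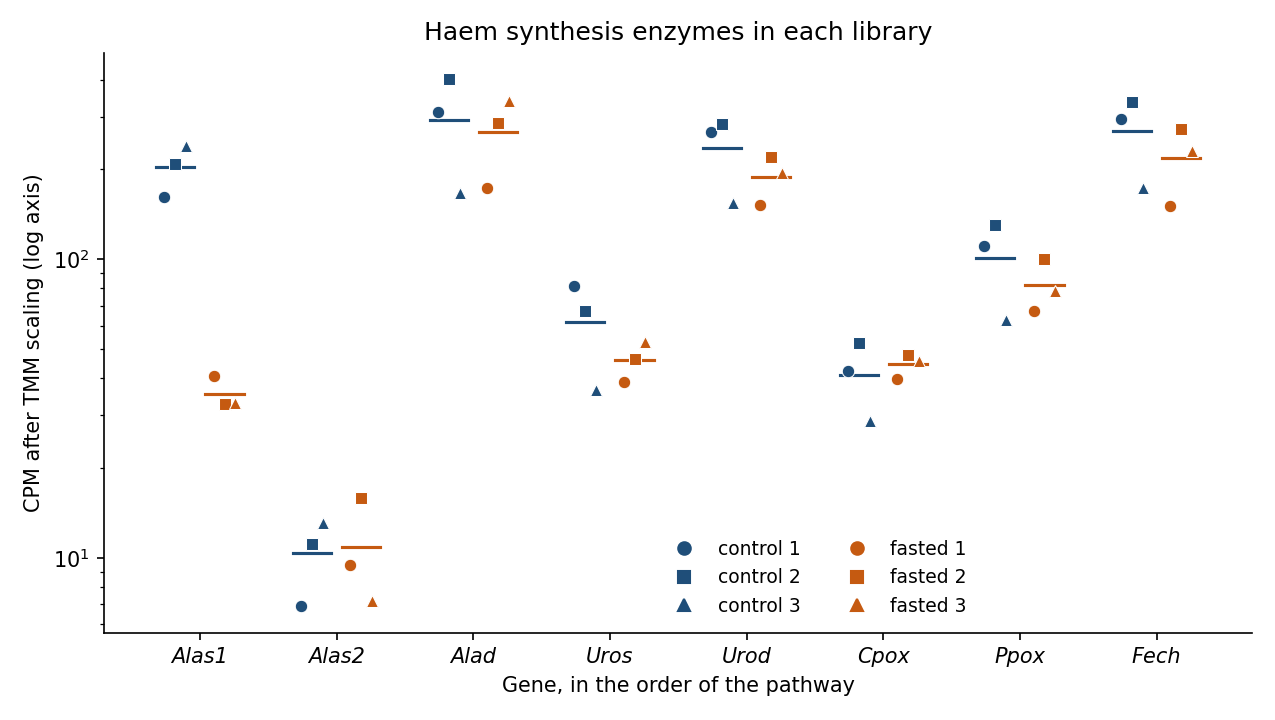
TMM-scaled CPM (log axis) of the 8 haem synthesis enzymes, with 1 point per library and a bar at each group mean. Alas1 is the gene whose groups do not overlap, at 161.9 to 239.7 CPM in control and 32.7 to 40.6 CPM in fasted.

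The sequences upstream of the isoenzymes are shown because it is here that they differ in the kind of factor word they carry. They come from the RefSeq windows of assembly GRCm38.p6, in which 7 of the 8 enzymes had 10 windows, and were searched on both strands over the 250 bases before each start. For the erythroid GATA factors the word was GATA preceded by A or T and followed by A or G. For NRF1, a regulator of mitochondrial and metabolic genes, it was the palindromic NRF1 motif with its middle base left free. The Alas1 stretches at chr9:106247935-106247964 and chr9:106247905-106247934 (minus strand) each hold an NRF1 word, in capitals. Both come from 1 of the Alas1 windows, whose start lies inside the gene span given above. The other Alas1 window held no NRF1 word. The Alas2 stretch at chrX:150547225-150547374 (plus strand) holds a GATA word read from the opposite strand, in capitals, whose first base is 86 bases before the start.
Alas1 upstream stretch 1: gcttcggcgcGCGCGTGCGCgcggcaggcc
Alas1 upstream stretch 2: gcacccaagGCGCATGCGCggcggtcactc
Alas2 upstream stretch: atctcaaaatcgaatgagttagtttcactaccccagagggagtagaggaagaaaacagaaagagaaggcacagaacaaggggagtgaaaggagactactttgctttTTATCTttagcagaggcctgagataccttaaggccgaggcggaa
A GATA word was in 26.5% of 32851 windows of all genes and an NRF1 word in 3.74%. Among the enzymes, 3 genes had a GATA word (Alas2, Uros and Cpox), in 3 of the 10 windows. An NRF1 word was in 2 genes (Alas1 and Uros) and 2 windows. The word CCNCNCCC, which the factor KLF1 can read, was in 4 of these genes (Alas1, Alas2, Alad and Uros) and 6 windows. It was in 45.9% of all windows. The E-box CACGTG was in 3 genes (Alad, Uros and Urod) and 4 windows, beside 6.02% of all windows. These matches describe letters, not bound sites.

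The later enzymes differed far less between the groups than Alas1 did. Alad, which joins a pair of 5-aminolevulinate molecules into porphobilinogen, had the highest level per kilobase of the 8 enzymes in every library. Alad (ENSMUSG00000028393.10, chromosome 4, 62509169 to 62519918, minus strand) had 7103, 8974 and 3507 counts in control 1, 2 and 3 and 2693, 5475 and 6494 counts in fasted 1, 2 and 3. TMM-scaled, it ran from 167.2 to 400.7 CPM in control and from 173.1 to 339.9 CPM in fasted, with a log2 fold change of -0.14 (SE 0.30). Control 3 and fasted 1 were low and the others high, so the spread within each group was wider than the gap between the means.

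Uros and Urod act next on the cytosolic part of the route, closing the tetrapyrrole ring as uroporphyrinogen III and then removing carboxyl groups from its side chains. Uros (ENSMUSG00000030979.13, chromosome 7, 133686243 to 133710072, minus strand) had 1853, 1502 and 765 counts in control and 602, 889 and 1009 counts in fasted. In TMM-scaled CPM it was 81.3, 67.1 and 36.5 against 38.7, 46.5 and 52.8, with a log2 fold change of -0.42 (SE 0.27), the lowest after Alas1. Controls 1 and 2 lay above all fasted libraries and control 3 below them all. Urod (ENSMUSG00000028684.14, chromosome 4, 116989965 to 116994413, minus strand) had 6101, 6369 and 3234 counts in control and 2368, 4195 and 3730 counts in fasted. Its TMM-scaled values were 267.7, 284.4 and 154.2 CPM against 152.2, 219.4 and 195.2 CPM, and its log2 fold change was -0.32 (SE 0.25). Controls 1 and 2 exceeded the fasted range and control 3 lay within it.

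Cpox, the mitochondrial oxidase that makes protoporphyrinogen, was the later enzyme that leaned towards higher values in fasted. Cpox (ENSMUSG00000022742.6, chromosome 16, 58670292 to 58717636, plus strand) had 961, 1171 and 604 counts in control 1, 2 and 3 and 619, 914 and 875 counts in fasted 1, 2 and 3. TMM-scaled, these were 42.2, 52.3 and 28.8 CPM against 39.8, 47.8 and 45.8 CPM, which overlap, with a log2 fold change of 0.11 (SE 0.25). On library totals the same counts gave 31.8, 44.5 and 26.9 CPM in control and 48.4, 50.2 and 58.8 CPM in fasted, without overlap, and a log2 fold change of 0.61 (SE 0.20). On that scale 12.8% of all well-measured genes lay wholly higher in fasted and 14.7%, with Alas1, wholly lower. Cpox is shown with its upstream stretch at chr16:58670058-58670207 (plus strand) because it was the later enzyme with GATA words in overlapping positions, here as CTATCTTATCA in capitals, on the opposite strand.
Cpox upstream stretch: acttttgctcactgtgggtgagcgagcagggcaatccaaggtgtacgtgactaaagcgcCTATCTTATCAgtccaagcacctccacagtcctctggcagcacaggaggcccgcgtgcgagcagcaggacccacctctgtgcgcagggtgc

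Ppox and Fech complete the route in the mitochondrion, oxidising protoporphyrinogen to protoporphyrin and inserting iron. Ppox (ENSMUSG00000062729.11, chromosome 1, 171275990 to 171281186, minus strand) had 2535, 2924 and 1309 counts in control and 1044, 1916 and 1495 counts in fasted. These were 111.2, 130.6 and 62.4 TMM-scaled CPM against 67.1, 100.2 and 78.2 CPM, with a log2 fold change of -0.31 (SE 0.26). Control 3 was the lowest of the 6 libraries for Ppox and control 2 the highest. Fech (ENSMUSG00000024588.9, chromosome 18, minus strand) had 6718, 7548 and 3647 counts in control and 2343, 5244 and 4414 counts in fasted. Its TMM-scaled values were 294.7, 337.1 and 173.9 CPM against 150.6, 274.2 and 231.0 CPM, with a log2 fold change of -0.30 (SE 0.27). For each of the 6 later enzymes, control 3 was the lowest control library and fasted 1 the lowest fasted library.

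Of the 8 enzymes, 1 (Alas1) was among the genes called at an adjusted p under 0.05 by edgeR, beside 4.97% of all genes tested, 3.82% of them lower in fasted. Among well-measured genes, 12.9% were called lower. The group ranges of TMM-scaled CPM did not overlap for 1 of the 8 (Alas1, lower), beside 15.1% of all genes tested and 47.8% of well-measured genes that lay wholly lower. Because the enzymes were listed with this contrast known, nothing is read from these counts. The median log2 fold change was -0.30 over the 8 enzymes, 0.32 over all genes tested and -0.50 over well-measured genes. When edgeR was fitted to those 10561 genes alone, it called none of them, Alas1 included, although 2080 had an unadjusted p under 0.05, whereas DESeq2 on the whole table called 5694 (24.5% of the genes to which it gave an adjusted p).

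The scaling set the sign of most later enzymes and not that of Alas1. With TMM factors from all genes, 6 of the 8 had a log2 fold change below 0 (Alas1, Alad, Uros, Urod, Ppox and Fech). On library totals the 7 enzymes other than Alas1 were all above 0, at 0.48 for Alas2, 0.38 for Alad, 0.11 for Uros, 0.18 for Urod, 0.61 for Cpox, 0.19 for Ppox and 0.20 for Fech. In the fit to well-measured genes they lay between 0.14 for Uros and 0.64 for Cpox. Alas1 was at -2.05 on library totals and at -2.04 in that fit. On library totals Alas1 was called lower, beside 0.797% of all genes tested, and none of the 8 higher, beside 11.8%. With TMM factors from well-measured genes, Alas1 was called lower, beside 0.696%, and Cpox higher at a log2 fold change of 0.64, beside 13.8%. The median of well-measured genes, which include all 8 enzymes, was -0.50 with TMM factors from all genes and -0.007 on library totals. It was 0.02 in the fit to these genes alone. Over all genes tested, the median on library totals was 0.81. A value near 0 on 1 scale is therefore not a measure of no change.

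**Figure D2:**
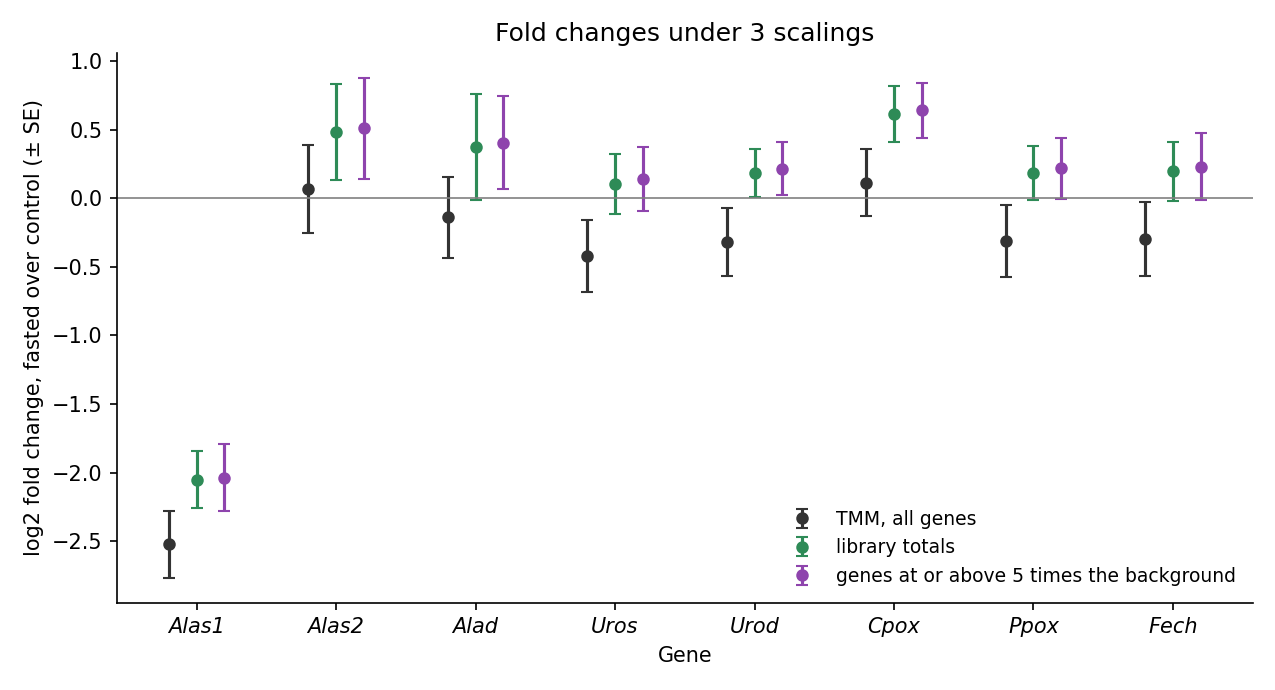
Log2 fold change, fasted over control, of each enzyme under 3 scalings, with the SE as error bars. Alas1 lies between -2.52 and -2.04 under all 3, while Alad, Uros, Urod, Ppox and Fech lie below 0 with TMM factors from all genes and above 0 with the others.

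Relative to the later enzymes of the same library, which needs no scaling between libraries, Alas1 was again the gene that stood apart. The log2 ratio of Alas1 to the geometric mean of the 6 later enzymes, per kilobase, was -0.33, -0.11 and 1.07 in control 1, 2 and 3. In fasted 1, 2 and 3 it was -1.58, -2.43 and -2.35. The difference of -2.32 corresponds to a 5.00-fold lower ratio in fasted, with the nearest libraries, control 1 and fasted 1, well separated. Control 3, whose later enzymes were the lowest of the control group, gave the highest ratio. Against all 7 other enzymes, Alas2 included, the ratio was 5.11-fold lower in fasted.

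Cpox was the other enzyme whose ratio to the later enzymes did not overlap between the groups. Each later enzyme was set against the remaining 5. The log2 ratio of Cpox was -2.86, -2.67 and -2.52 in control 1, 2 and 3 and -2.06, -2.38 and -2.38 in fasted 1, 2 and 3, a difference of 0.41, with every fasted library above every control library. Of well-measured genes set against the 6 later enzymes in the same way, 6.65% lay wholly lower and 2.57% wholly higher in fasted, and the median difference was -0.30. Alas1 had the ninth lowest difference of the 10561 genes, and Cpox lay at the 88.1 percentile. Urod kept the most even ratio over the 6 libraries, at 1.97, 1.90 and 2.02 in control and 1.90, 1.89 and 1.77 in fasted. The ratios of Alas2, Alad, Uros, Urod, Ppox and Fech overlapped between the groups.

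**Figure D3:**
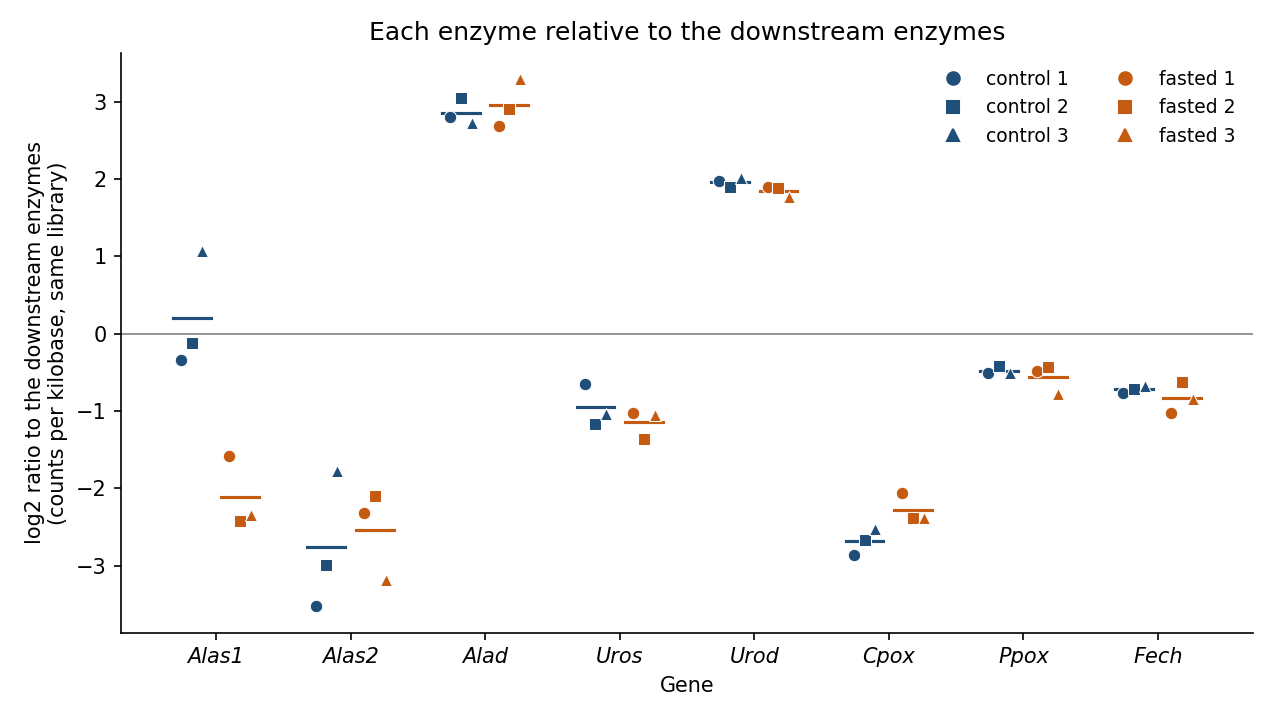
Log2 ratio of each enzyme to the later enzymes of the same library (counts plus 0.5, per kilobase of exon), 1 point per library, with group means as bars. Alas1 runs from -0.33 to 1.07 in control and from -2.43 to -1.58 in fasted, and Cpox lies slightly higher in fasted.

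The order of the enzymes by level shows the same shift. In RPKM, which divides counts by exon length and library total, the mean level in control was 130 for Alad, 75.6 for Urod, 28.3 for Alas1, 18.7 for Ppox, 16.2 for Fech, 14.2 for Uros, 5.16 for Cpox and 3.73 for Alas2. The fasted means were 169, 85.7, 6.80, 21.2, 18.5, 15.3, 7.87 and 5.18 RPKM in the same order of genes. Alad and Urod held the first and second places in all 6 libraries. Alas1 was the third most abundant enzyme in each control library and came sixth, eighth and seventh in fasted 1, 2 and 3. Ranges overlapped within each group for Ppox, Fech and Uros. In control they also overlapped for Alad and Urod, for Alas1 with both Ppox and Fech, and for Cpox and Alas2, and in fasted for Alas1 with both Cpox and Alas2. Among the well-measured genes, Alas1 stood at the 69.5, 78.9 and 83.2 percentile per kilobase in control 1, 2 and 3 and at the 37.8, 25.9 and 30.8 percentile in fasted 1, 2 and 3. It was the enzyme without overlap in this rank, as were 14.3% of those genes in the same direction.

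Of the summed RNA of the 8 enzymes per kilobase, Alas1 made up 7.01, 7.66 and 16.6% in control 1, 2 and 3 and 3.22, 1.70 and 1.66% in fasted 1, 2 and 3. Alad and Urod together held most of it in every library. Alad accounted for 43.7 ± 5.17% (SD, n = 3) in control and 50.3 ± 5.76% (SD, n = 3) in fasted, and Urod for 26.0 ± 1.48% and 26.5 ± 2.71%. Cpox rested at 1.77 ± 0.08% in control and 2.46 ± 0.41% in fasted.

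The marker sums varied between the libraries, in part in the same order as the enzymes. Alas1, at 122, 178 and 224 CPM of library totals in control 1, 2 and 3, followed the order of the granulocyte-monocyte genes in that group. It did not in fasted 1, 2 and 3, with Alas1 at 49.3, 34.3 and 42.3 CPM and these genes at 4195, 2724 and 1671 CPM. On library totals the sum of the granulocyte-monocyte genes in control 1 (3538 CPM) lay within the range of the fasted libraries (1671 to 4195 CPM), where Alas1 was at 34.3 to 49.3 CPM. Another measure gave no such overlap: the mean TMM-scaled log2 CPM of these genes, each centred on its own mean. It was -0.36 in control 1 and -0.47, -0.84 and -1.55 in fasted 1, 2 and 3. All 12 of these genes were found and well measured and none was at 0 throughout. The later enzymes, like the summed MEP markers, were lowest in control 3 among the controls and in fasted 1 among the fasted libraries. Megakaryocyte and platelet genes summed to 309 to 396 CPM in control and 181 to 285 CPM in fasted, without overlap. Of these 6 genes, 3 were well measured, and some are also MEP markers. They did not all differ between the groups in the same direction. Genes of haemoglobinised erythroid cells summed to 248 to 555 CPM in control and 481 to 552 CPM in fasted, those of mast cells and basophils to 103 to 203 and 50.8 to 107 CPM, and those of B and T lymphocytes to 52.0 to 85.5 and 78.5 to 155 CPM. The part of these cells in the values of the enzymes was not tested.

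**Figure D4:**
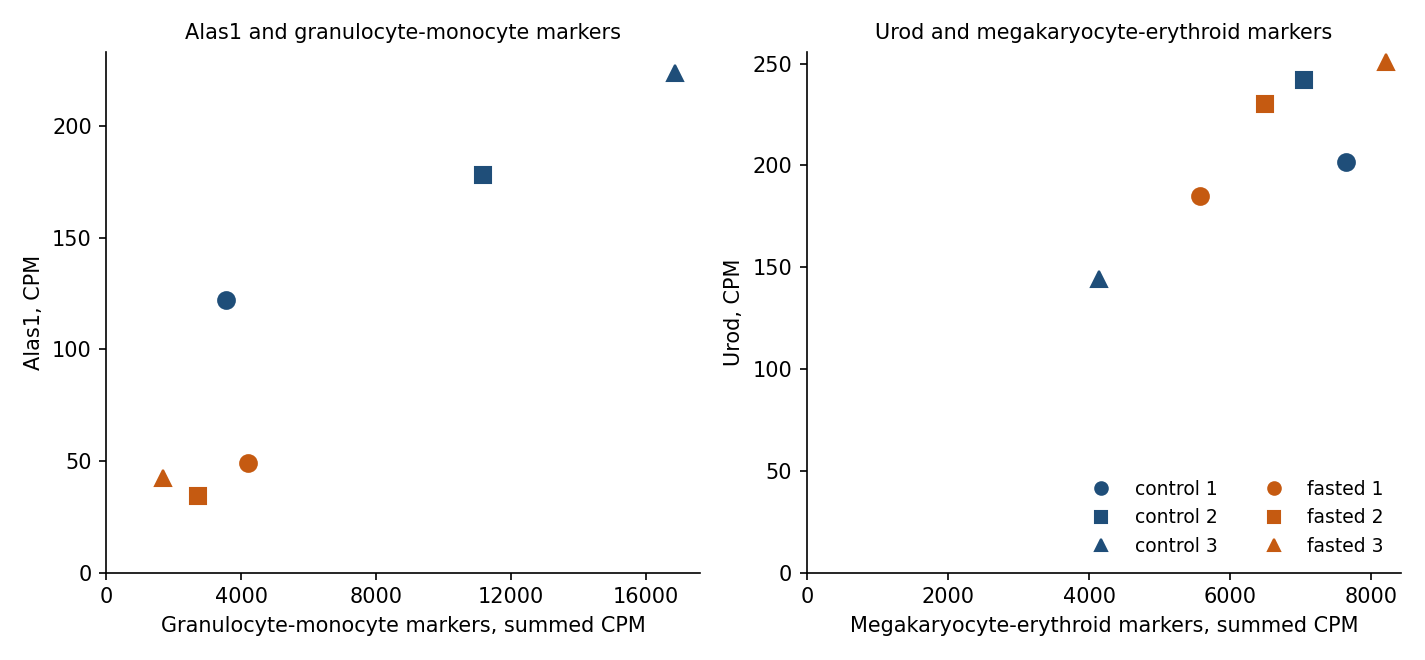
Left, Alas1 against the summed granulocyte-monocyte markers, and right, Urod against the summed MEP markers, both as CPM of library totals with 1 point per library. The markers run from 3538 to 16847 CPM in control and from 1671 to 4195 CPM in fasted, and Alas1 from 122 to 224 CPM and from 34.3 to 49.3 CPM.

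Genes that overlap the enzymes on the opposite strand matter if counting ignored strand, which the sources used here do not give. The overlap covered 465 exonic bases of Alas1, or 7.53% of its exon length, by the antisense gene 4930500F10Rik, which had 2 to 25 counts per library. For Alas2 it was 311 bases, or 12.9%, with Apex2, and for Ppox 791 bases, or 17.5%, with B4galt3. Apex2 had 216 to 599 counts per library, more than Alas2 in every library, and B4galt3 had 758 to 1533. If strand was ignored, the levels of Alas2 and Ppox may hold reads of these genes or lack reads of their own from the shared bases. Which of these applies depends on counting settings that are not given.

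The other genes of the pathway came from 4 lists of 62 genes, of which 61 had a value and were tested with edgeR. In these, 9 genes fell in fasted at a Benjamini-Hochberg adjusted p under 0.05 and none rose, beside 3.82% of all genes tested that fell and 1.15% that rose. The count was 0 without control 2, fasted 1 or fasted 3, and 26 without control 3. The 9 genes are 14.8% of those tested, near the 12.9% called lower among all well-measured genes, so it is no result particular to haem genes. None of the 53 listed genes in the fit to well-measured genes was called there. On library totals 2 were called lower (Hmox2 and Cycs) and 1 higher (Bach1, a haem-sensing repressor), beside 0.797% and 11.8% of all genes tested. Bach1 averaged under 5 times the background. Its log2 fold change of 0.81 on library totals lay below the median of 1.01 of tested genes under that threshold. The log2 fold changes of the listed genes below are those with TMM factors from all genes, where 52 of the 61 lay below 0. On library totals 20 of these 52 lay above 0, while the 9 called genes stayed below 0 there and in the fit to well-measured genes.

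Of 16 genes that supply precursors or carry them into mitochondria, 2 fell and none rose. Suclg1, a subunit of the succinyl-CoA ligase, had 374.8, 293.4 and 273.6 CPM in control and 166.9, 193.1 and 180.8 CPM in fasted, a log2 fold change of -0.80 (SE 0.22, edgeR adjusted p = 0.0451). Ogdh, the 2-oxoglutarate dehydrogenase subunit that makes succinyl-CoA, had a log2 fold change of -0.81 (SE 0.24, edgeR adjusted p = 0.0496). Fasted libraries lay below the controls for both genes. Slc25a38, the glycine carrier for haem synthesis, had the highest value of that list among genes with a mean of at least 5 CPM, at -0.10 (SE 0.25, edgeR adjusted p = 0.787), which turned to 0.40 on library totals and to 0.43 in the fit to well-measured genes.

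Haem export, breakdown and chaperones held 10 genes, of which 1 fell and none rose. Hmox2, the constitutive haem oxygenase, had 80.2, 68.7 and 68.8 CPM in control and 38.0, 37.1 and 28.1 CPM in fasted, a log2 fold change of -1.08 (SE 0.23, edgeR adjusted p = 0.0277). The control values were close together and well above those of fasted. Blvrb, a biliverdin reductase, was at 0.07 (SE 0.27, edgeR adjusted p = 0.877), and at 0.59 on library totals and 0.62 in the fit to well-measured genes.

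Among 19 regulators of ALAS and of haem genes, 2 fell and none rose. Nfe2, an erythroid and megakaryocyte transcription factor, had 614.1, 270.4 and 200.4 CPM in control and 162.8, 138.5 and 133.8 CPM in fasted, a log2 fold change of -1.32 (SE 0.32, edgeR adjusted p = 0.0405). Control 1 stood far above the others. Hif1a, the oxygen-regulated factor subunit, was at -0.97 (SE 0.25, edgeR adjusted p = 0.0408). Ppargc1a, a coactivator known to induce Alas1 in the fasted liver, had 5.66, 9.15 and 10.2 CPM in control and 13.3, 12.0 and 11.5 CPM in fasted, a log2 fold change of 0.56 (SE 0.29, edgeR adjusted p = 0.202). The fasted libraries lay above the controls. Ppargc1a averaged under 5 times the background, so its level is uncertain. Tested genes under that threshold had a median log2 fold change of 0.53 on this scale, so 0.56 is near that of low-count genes at large. On library totals Ppargc1a was at 1.02, beside a median of 1.01 for those genes.

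Of 16 haem-containing proteins and their partners, 4 fell and none rose. They were Ptgs1, a cyclooxygenase, at -1.02 (SE 0.25, edgeR adjusted p = 0.0367), Cycs, the somatic cytochrome c, at -0.98 (SE 0.23, edgeR adjusted p = 0.0333), Cyba, the light chain of the phagocyte cytochrome b, at -0.94 (SE 0.24, edgeR adjusted p = 0.0394) and Tspo, a mitochondrial outer membrane protein that binds porphyrins, at -0.85 (SE 0.23, edgeR adjusted p = 0.0423). Mpo, the haem peroxidase of granulocyte precursors, had the lowest value at -2.47 (SE 0.76, edgeR adjusted p = 0.120). Its TMM-scaled levels of 3176, 7395 and 10270 CPM in control and 2022, 1344 and 397.6 CPM in fasted did not overlap, but differed severalfold within each group. On that scale 47.8% of well-measured genes lay wholly lower. On library totals the groups of Mpo overlapped, with 2393 CPM in control 1 and 2457 CPM in fasted 1. Hbb-bs, an adult beta-globin, was at 0.01 (SE 0.29, edgeR adjusted p = 0.982), and at 0.45 on library totals and 0.47 in the fit to well-measured genes.

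**Figure D5:**
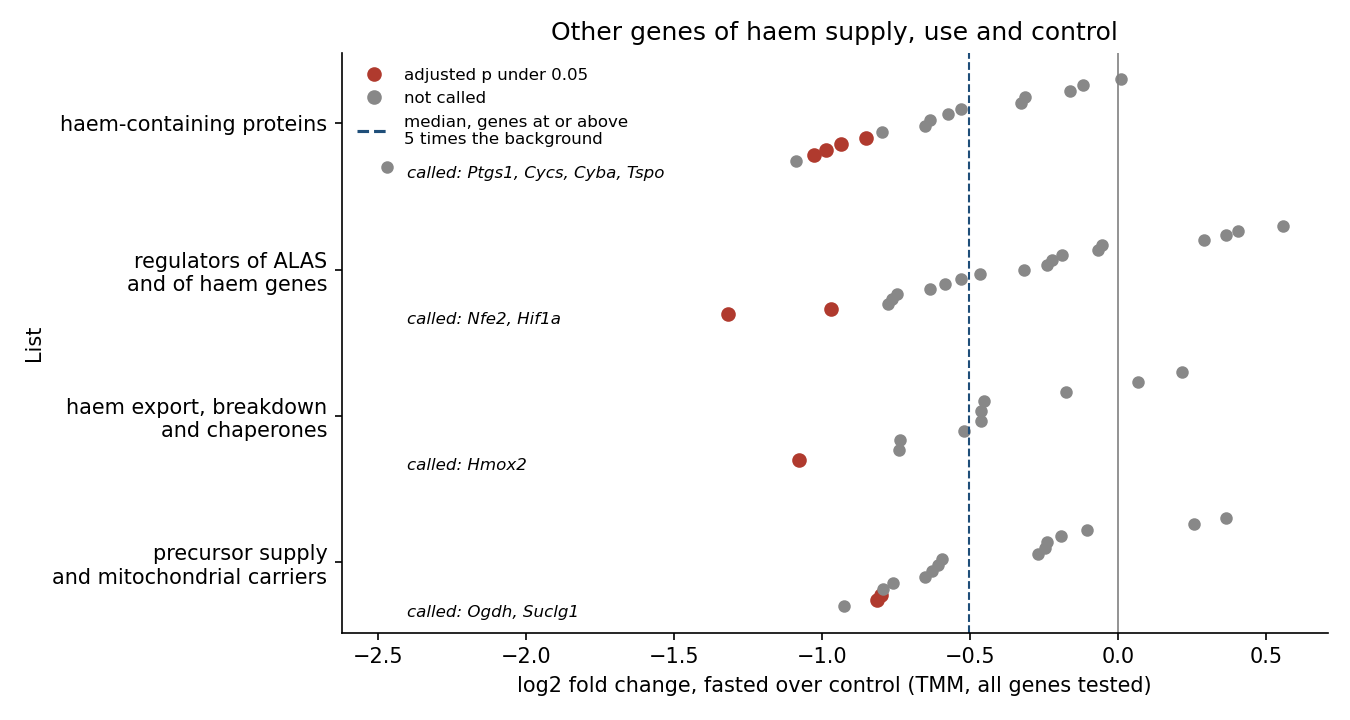
Log2 fold change (TMM factors from all genes) of the 61 other haem genes by list, with the 9 called genes in red and named at the left. Most points lie left of 0, around the median of -0.50 of well-measured genes, shown as a dashed line.

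The genes whose pattern over the 6 libraries was most like that of Alas1 were searched among 8242 genes, by the root mean square difference of log2 CPM centred on the mean of each gene. Ppic was nearest at 0.34, followed by Slc31a2 at 0.37, Idh1 at 0.43, Atp8b4 at 0.43 and Sdf2l1 at 0.45, against a median of 1.06. Ppic is a cyclophilin, Slc31a2 a copper transporter relative and Idh1 the cytosolic isocitrate dehydrogenase. Their log2 fold changes ran from -2.07 for Ppic to -1.77 for Sdf2l1, all smaller in size than that of Alas1. Nearest to Alas2 were Med13 at 0.07, Mnt at 0.13, Zfand5 at 0.13, Ifrd1 at 0.13 and Atf4 at 0.14, against a median of 0.60. The Alas2 neighbours had log2 fold changes between -0.08 for Atf4 and 0.04 for Zfand5. These are likenesses over 6 libraries only.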

How the data were processed

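The authors deposited raw counts per gene (unit: counts, whole numbers) for 6 libraries of bulk RNA-seq, in a table of the whole series. Per the submitters' processing notes, HISAT2 2.2.1, featureCounts 2.0.1 and the genome build GRCm38 were named, with no role or order, and the annotation release, strand setting and filters are not given in the sources used here. Of 55487 gene identifiers, 54435 matched GENCODE M21 with version and with the same merged exon length, and M21 supplied symbols and positions.

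Genes were kept with edgeR's filterByExpr, scaled with TMM factors and tested with the robust quasi-likelihood test (edgeR 4.0.16, R 4.3.3), group being the only term, with Benjamini-Hochberg adjustment over all genes tested and a call at 0.05. The fit was tested on simulated data. Background was the mean count per kilobase over 1740 receptor genes. Ratios used counts plus 0.5. The members and lists were chosen with earlier results of these data known. Named were all 8 enzymes, every called gene of the partner lists, the largest rise and fall of each list at a mean of at least 5 CPM, and the 5 nearest genes to Alas1 and to Alas2; Bach1 and the genes that overlap an enzyme were added after their values were seen. A gene that this rule names is not reported here. The labels name no pairing. Deviations from the group means correlated at -0.16, 0.13 and -0.27 between libraries of equal replicate number, and at -0.13 to 0.28 between the others. With 3 libraries per group this cannot exclude a pairing. Alternatives were library totals, RLE factors, TMM factors or fits from genes that averaged 5 times the background or more, background subtraction, DESeq2 1.42.0, non-robust edgeR, no filter, a replicate block and leaving out each library.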

Additional observations from a re-analysis of the deposited data

How the results depend on the processing

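The counts of calls moved with the scaling, the genes fitted, the tool and the libraries left out. The cause was not tested. Against 1813 genes called, library totals gave 4587 (291 lower), RLE factors 2973, TMM factors from well-measured genes 5292, DESeq2 5694, non-robust edgeR 558, and no filter 2849. A fit to well-measured genes or to background-subtracted counts called 0. Leaving out 1 library gave 7 (without fasted 3) to 5379 (without control 3) genes; the fit to well-measured genes, chosen after seeing the data, gave 3 without control 1 or control 3 and 0 without any other. The labels name no pairing, and the fit with the replicate block called 146 genes, Alas1 among them, and 0 partner genes. Against 1 enzyme called, TMM factors from well-measured genes gave 2 (Cpox higher), well-measured genes alone and background subtraction gave 0, leaving out 1 library gave 1 to 2 (Uros without control 3), and well-measured genes alone gave 1 without control 1 or control 3 and 0 without any other. Against 9 partner genes, library totals gave 3, RLE 17, TMM factors from well-measured genes 4, DESeq2 29, non-robust edgeR 5, no filter 15, well-measured genes alone and background subtraction 0, the former also with each library left out, and leaving out 1 library gave 0 (without control 2, fasted 1 or fasted 3) to 26 (without control 3). Log2 fold changes that reversed, given for library totals, TMM factors from well-measured genes, the fit to those genes and background subtraction in this order, were 0.38, 0.41, 0.41 and 0.48 for Alad, 0.11, 0.14, 0.14 and 0.18 for Uros, 0.18, 0.22, 0.22 and 0.29 for Urod, 0.19, 0.22, 0.22 and 0.27 for Ppox, and 0.20, 0.23, 0.23 and 0.28 for Fech. RLE and DESeq2 gave -0.091 and -0.12 for Alas2 and -0.084 and -0.11 for Cpox. Leaving out 1 library moved Alas2 from -0.40 to 0.28, Alad from -0.43 to 0.14 and Cpox from -0.10 to 0.31. Alas1 remained below 0 under all 21 alternatives, but lost its call in 6, all of them fits to well-measured genes or to background-subtracted counts. The ratio of Alas1 to Alas2 (-2.76 to -2.18) and to the other enzymes (-2.61 to -2.00) moved by less than the spread between libraries in all 8 alternatives each. Depth limits Alas2 most, at 137 to 304 counts per library.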
